A study of Mus musculus with 16 samples.

Results

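The SR and hnRNP splicing factors are the RNA-binding proteins that help the spliceosome choose which exons to join. They were followed here through a dose series of nuclear GATA1 activity in mouse erythroid cells. The members were chosen by name: every symbol in the count table that starts with Srsf or Hnrnp, plus Tra2a, Tra2b, Ptbp1, Ptbp3, Sf3b1, Sf3b3, U2af1 and U2af2. This gave 37 of the 23410 symbols, and 36 of them were among the 10080 genes with enough counts to test. Srsf12 had 0 counts in all 16 libraries and was not tested.

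G1E-ER4 is a mouse cell line that does not make its own GATA1 and instead carries a GATA1-estrogen receptor fusion, which enters the nucleus when beta-estradiol is added. Cells received 12.5, 25, 50, 75, 100, 150 or 200 nM beta-estradiol, or 0 nM as the control, with 2 libraries at each of the 8 doses. All groups, the 0 nM control included, carry the fusion and grew in IMDM with fetal bovine serum, stem cell factor and erythropoietin, so no library shows the line without the fusion, and the series rests on a single line. The sources used here do not give the exposure time, nor do the labels say that the replicates were separate cultures, so p-values measure the spread between these libraries alone.

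SR proteins carry RNA recognition motifs and a tail rich in arginine and serine; they bind exonic enhancers and recruit the U1 and U2 particles to nearby splice sites. The hnRNPs coat nascent transcripts and often keep splice sites from being used, and the U2AF pair and the SF3B subunits mark the end of the intron and its branch point. Many of these genes limit their own protein by splicing in or out a segment that sends their transcript to nonsense-mediated decay. In maturing red cell precursors, splicing of transcripts such as that of Epb41, which encodes the membrane skeleton protein 4.1R, is known to switch, and in humans SF3B1, SRSF2 and U2AF1 are often mutated in myelodysplastic disease.

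The libraries held between 9393156 and 15802510 counts. Levels are given as CPM, each gene's count relative to the library's total, scaled by the trimmed mean of M values (TMM), which sets the bulk of genes equal across libraries. The summed level of 10 erythroid markers was 30430 to 30920 CPM at 200 nM and 3038 to 3129 CPM at 0 nM, with 9 of them higher and Kit, the stem cell factor receptor, lower. Of 9 megakaryocyte markers, the 4 tested were also higher at 200 nM, their summed level being 432 to 445 CPM at 200 nM against 10.0 to 11.3 CPM at 0 nM, while Gp1bb, Gp6, Ppbp and Vwf were at 0. Macrophage and granulocyte markers summed to 3.22 to 3.41 CPM at 200 nM and 0.552 to 1.198 CPM at 0 nM. Mast cell markers summed to 0.424 to 0.553 CPM at 200 nM and 0.757 to 1.72 CPM at 0 nM, while lymphocyte markers stayed at or under 0.276 CPM and fibroblast and endothelial markers at or under 0.339 CPM in the libraries of both doses. The part of these cell type differences in the results that follow was not tested, and in bulk RNA fewer cells of a type and less RNA per cell cannot be told apart.

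Together the 37 genes took a smaller share of the library as the dose increased. Their share of all counts was 1.22% at 0 nM, 1.21% at 12.5 nM, 1.17% at 25 nM, 1.15% at 50 nM, 1.04% at 75 nM, 0.917% at 100 nM, 0.757% at 150 nM and 0.611% at 200 nM. The SD of the 2 libraries was 0.00303 percentage points at 200 nM and 0.00748 at 0 nM. The ribosomal RNA precursor Rn45s and the globins took more of the library at high dose, with Rn45s at 15.0% and globins at 5.85% of counts at 200 nM against 9.57% and 0.151% at 0 nM. With those genes left out of the total, the members held 0.772% at 200 nM and 1.35% at 0 nM.

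At 200 nM against 0 nM, 27 of the 36 tested members were lower and 5 were higher by edgeR's quasi-likelihood test with a Benjamini-Hochberg adjusted p under 0.05. That is 75.0% lower and 13.9% higher, beside 39.5% lower and 40.5% higher among all genes tested. The median log2 fold change was -0.53 for the members and 0.02 for all genes. With library size alone as the scaling, the median gene stood at -0.36 (log2) in place of 0.02, and 30 members were lower and 1 higher beside 53.5% and 28.0% of all genes. With library size after leaving out Rn45s and the globins, a setting chosen after seeing the data, the median gene stood at -0.17, and 28 members were lower and 2 higher beside 46.6% and 33.8%. The median member lay 0.55 below the median gene under each of these 3 scalings. That gap is fixed by construction, since a change of scaling moves all genes alike, so it is no check on the result. Without replicate 1 of 0 nM, 3 members in place of 5 were higher.

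How many changes reached 2-fold depended on the scaling. With TMM a decrease of at least 2-fold was called for 6 members (Srsf7, Srsf1, Hnrnpa0, Srsf3, Srsf10 and Tra2b), or 16.7% beside 17.4% of all genes. With library size alone it was called for 15 members (41.7% beside 27.0% of all genes), and with library size after leaving out Rn45s and the globins for 12 (33.3% beside 21.9%). A rise of at least 2-fold was called for Srsf9 alone, 2.78% of the members beside 19.7% of all genes. The log2 fold change of Srsf9 was 0.64 with library size alone and 0.83 after leaving out Rn45s and the globins, still called higher but short of 2-fold, so that 0 members rose 2-fold there (13.7% and 16.2% of all genes). Over all 8 doses together, 34 of 36 members differed, 94.4% beside 86.3% of all genes, the exceptions being Hnrnpa1 and Hnrnph3.

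**Figure D1:**
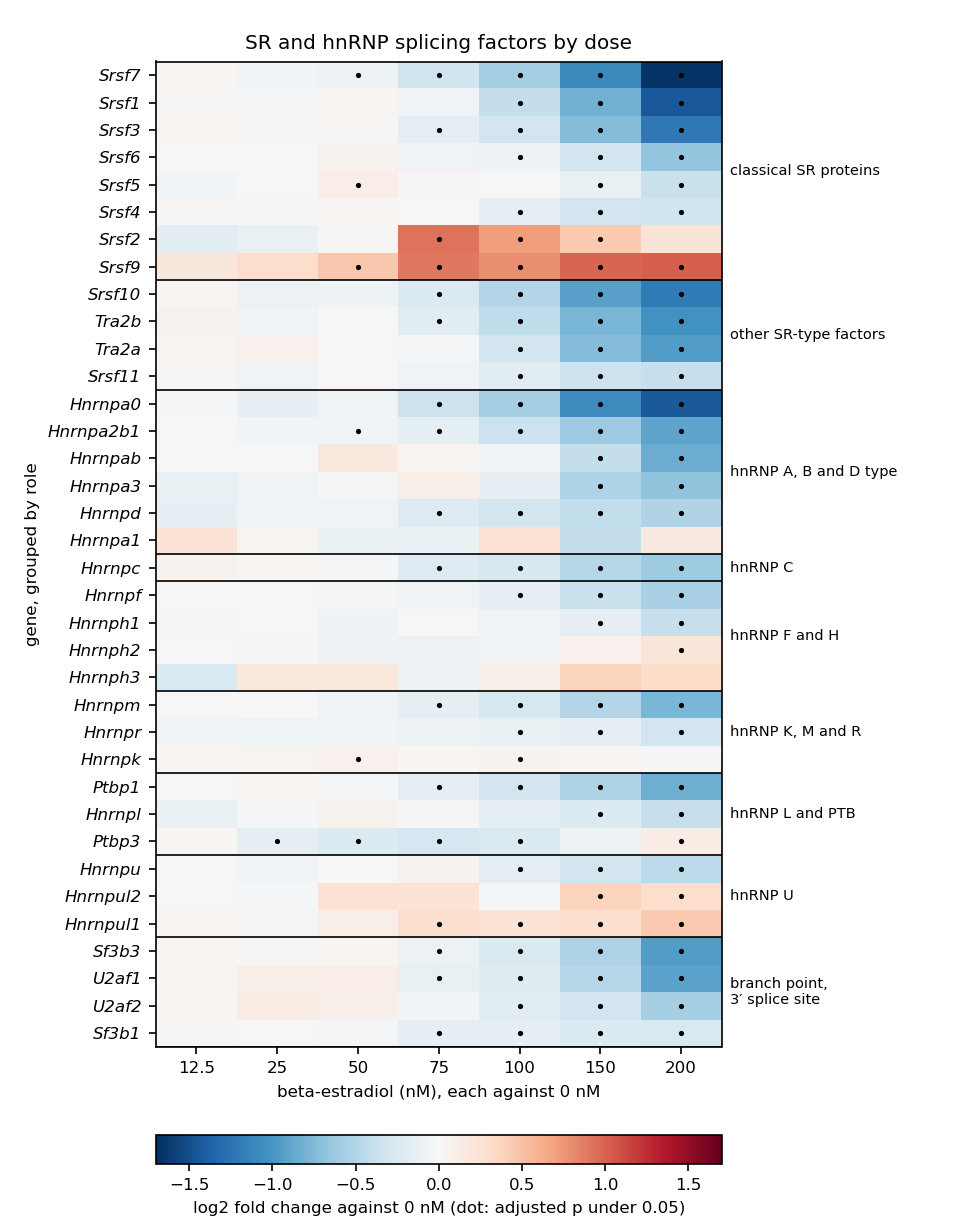
Log2 fold change against 0 nM (colour, edgeR, TMM scaling) for each of the 36 tested splicing factors (rows, grouped by role) at each of 7 doses of beta-estradiol (columns, nM); dots mark an adjusted p under 0.05. Blue (lower) fills most rows from 75 nM upward, while the called rises (red with a dot) are those of Srsf9, Srsf2, Srsf5, Hnrnpk, Hnrnpul1, Hnrnpul2, Hnrnph2 and Ptbp3; when library size alone sets the scale, Srsf2, Hnrnpul2, Hnrnph2, Hnrnph3, Hnrnpa1 and Ptbp3 are below 0 at 200 nM, and the rises of Srsf5, Hnrnpk and Hnrnpul1 are not called.

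Most members stood near their 0 nM level up to 50 nM. At 12.5 nM none of the 36 was called by edgeR in either direction, beside 0.278% of all genes higher and 0.228% lower, and 1 (lower) had an unadjusted p under 0.05; DESeq2 called 0 as well. At 25 nM only Ptbp3 was lower, beside 1.02% of all genes. None was higher, beside 3%, with 3 higher at an unadjusted p under 0.05 and 0 called higher by DESeq2. Ptbp3 was not called at 25 nM without replicate 1 or 2 of 0 nM or replicate 2 of 25 nM. At 50 nM, 3 members were higher (Srsf5, Hnrnpk and Srsf9) beside 18.8% of all genes, and 3 were lower (Srsf7, Ptbp3 and Hnrnpa2b1) beside 14.7%. Without replicate 1 of 0 nM the higher count at 50 nM was 1, and without either 0 nM replicate or replicate 1 of 50 nM the lower count was 1. With library size alone, 12 members (33.3%) were lower and 1 (2.78%) was higher at 50 nM, beside 23.1% and 13.3% of all genes.

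From 75 nM upward the lower calls accumulated. There were 14 lower members at 75 nM (26.9% of all genes), 23 at 100 nM (32.5%) and 27 at 150 nM (36.6%). The higher members numbered 3 at 75 nM (29.0% of all genes), 4 at 100 nM (34.1%) and 4 at 150 nM (37.7%), and only 1 at 150 nM without replicate 1 of that dose. With library size alone 26 members (72.2%) were lower at 75 nM, beside 37.8% of all genes. Of the 27 members lower at 200 nM, 2 were first lower at 50 nM, 11 at 75 nM, 9 at 100 nM and 5 at 150 nM. The same split was not counted for all genes. The 2 first lower at 50 nM were Srsf7 and Hnrnpa2b1. The 50 nM call of Srsf7 (edgeR adjusted p = 0.049) was lost with DESeq2 (0.0973), without the filter (0.0638) or with the replicate number as a block (0.0527). That of Hnrnpa2b1 (0.0389) was lost without the filter (0.0941).

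**Figure D2:**
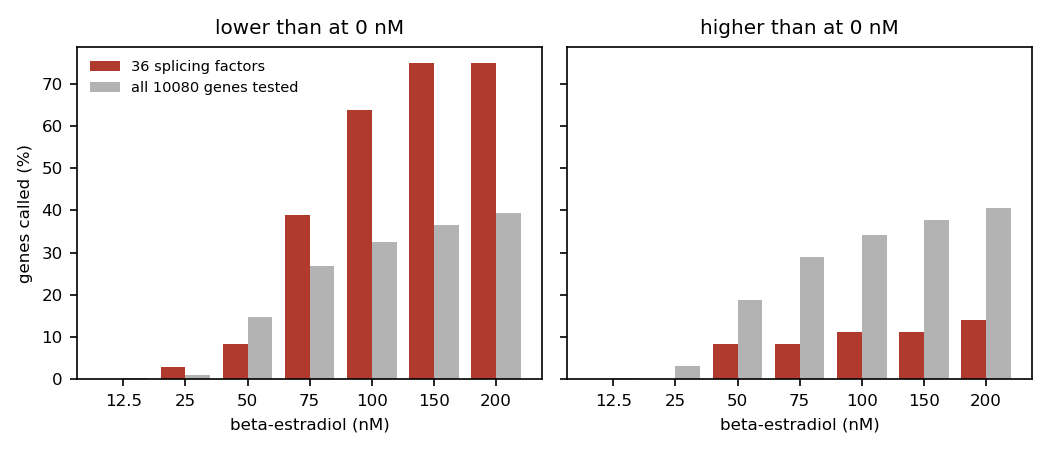
Share of genes called (%, y axis, edgeR, TMM scaling) lower (left panel) and higher (right panel) than at 0 nM at each of 7 doses of beta-estradiol (nM, x axis), for the 36 splicing factors (red) and all 10080 genes tested (grey). The lower share of the splicing factors stands below that of all genes at 50 nM (8.33% and 14.7%) and above it from 75 nM upward, and their higher share stands below that of all genes at each dose from 50 nM upward.

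Between neighbouring doses the steps above 50 nM were mostly downward. From 12.5 to 25 nM Ptbp3 was the only member called, and it was lower (0.198% of all genes lower and 0.893% higher). From 25 to 50 nM Srsf5 was the only one, and it was higher (14.1% of all genes higher and 12.1% lower). From 50 to 75 nM, 14 members were lower and 3 higher (15.8% and 16.6% of all genes), and from 75 to 100 nM, all 13 members called were lower (12.8% of all genes lower and 14.7% higher), with 0 higher at an unadjusted p under 0.05. From 100 to 150 nM, 23 were lower and 2 higher (20.2% and 20.6%), and from 150 to 200 nM, 20 were lower and 2 higher (19.9% and 19.4%). The 2 members that rose in the last step were Ptbp3 and Hnrnph2, and Hnrnpul2 and Ptbp3 rose in the one before it. No member peaked or dipped against both 0 and 200 nM at 12.5 nM, where 0.0397% of all genes peaked and 0.159% dipped, or at 150 nM (1.66% and 0.952%), and none peaked at 25 nM (0.526%).

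Among the 8 classical SR proteins, 6 fell and Srsf9 rose at 200 nM, with a median log2 fold change of -0.53. Srsf7, which binds exonic enhancers and also links splicing to mRNA export, had the largest fall of all members. It lies on chromosome 17 at 80200080 to 80207307 (minus strand, GRCm38), and shares no exon base with another annotated gene. Its level in the 2 libraries was 429 and 429 CPM at 0 nM, 450 and 426 CPM at 12.5 nM, 418 and 412 CPM at 25 nM, 393 and 415 CPM at 50 nM, 339 and 341 CPM at 75 nM, 289 and 280 CPM at 100 nM, 193 and 208 CPM at 150 nM, and 136 and 135 CPM at 200 nM. From 75 nM upward each dose lay below all libraries of the lower doses. The log2 fold change at 200 nM was -1.67 ± 0.04 (SE; adjusted p = 3.52e-36), a level 3.17-fold lower than at 0 nM, and already -0.34 at 75 nM (adjusted p = 4.7e-11).

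Srsf3 is the smallest SR protein and, like Srsf7, an adaptor for mRNA export. It had 657 and 658 CPM at 0 nM, 646 and 681 CPM at 50 nM, 593 and 593 CPM at 75 nM, 530 and 524 CPM at 100 nM, 390 and 403 CPM at 150 nM, and 283 and 282 CPM at 200 nM. As with Srsf7, no library from 75 nM upward reached the lowest library of the doses below it. Its log2 fold change at 200 nM was -1.22 ± 0.04 (adjusted p = 4.66e-33); 4 other genes have a near-identical coding copy, so reads could have been split between them. Srsf1, the founding SR protein, was at 43.5 and 44.2 CPM at 200 nM, against 118 and 120 CPM at 0 nM. It fell later than Srsf7: at 75 nM it still had 114 and 113 CPM, within its range at the lower doses, and at 100 nM 87.5 and 92.1 CPM. The fall at 200 nM was -1.44 ± 0.08 on the log2 scale (adjusted p = 1.05e-15).

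The other 3 that fell did so by less than 2-fold. Srsf6, an enhancer-binding SR protein, had 376 and 383 CPM at 200 nM, against 608 and 601 CPM at 0 nM (log2 fold change -0.67 ± 0.03). Its close paralogue Srsf4 had 117 and 113 CPM at 200 nM, against 145 and 147 CPM at 0 nM (-0.34 ± 0.05), but 43.0% of its annotated exon bases also belong to another gene, Gm12992. Srsf5 passed through a small maximum. It had 381 and 388 CPM at 0 nM, 417 and 416 CPM at 50 nM, 388 and 394 CPM at 75 nM, and 296 and 295 CPM at 200 nM. The 50 nM level was 0.12 (log2) above 0 nM and 0.50 above 200 nM (adjusted p = 0.00875 for both together, a peak called in 2.52% of all genes). The excess over 0 nM was not called without replicate 1 of 0 nM, where it was 0.10, or when library size set the scale, where it was 0.05.

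Srsf9 and Srsf2 went the other way. Srsf9, a small SR protein close to Srsf1 in sequence, had 13.1 and 12.2 CPM at 0 nM, 15.3 and 13.8 CPM at 12.5 nM, 15.5 and 15.7 CPM at 25 nM, 17.9 and 17.1 CPM at 50 nM, 23.5 and 23.8 CPM at 75 nM, 23.4 and 20.6 CPM at 100 nM, 25.8 and 24.4 CPM at 150 nM, and 24.8 and 26.7 CPM at 200 nM. All libraries above 0 nM exceeded both 0 nM libraries, and most of the increase lay at or below 75 nM. The log2 fold change was 0.46 ± 0.11 at 50 nM (adjusted p = 0.00102), 0.90 ± 0.11 at 75 nM and 1.02 ± 0.11 at 200 nM (adjusted p = 2.02e-11). It was the only member higher at 200 nM under each scaling tried.

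Srsf2, also called SC35, is an SR protein that binds exonic enhancers of both G-rich and C-rich form. It had 47.5 and 49.5 CPM at 0 nM, 43.0 and 42.2 CPM at 12.5 nM, 48.1 and 40.3 CPM at 25 nM, 45.3 and 53.0 CPM at 50 nM, 98.7 and 85.4 CPM at 75 nM, 78.2 and 80.6 CPM at 100 nM, 69.5 and 62.1 CPM at 150 nM, and 44.9 and 67.3 CPM at 200 nM. The 75 nM libraries stood above all others, and the 2 libraries at 200 nM differed more than those of any other dose, one of them below both 0 nM libraries. The step from 50 to 75 nM was 0.90 ± 0.16 on the log2 scale (adjusted p = 0.00263). The 75 nM peak stood 0.92 above 0 nM and 0.71 above 200 nM (adjusted p = 0.00771 against both ends, a peak called in 3.36% of all genes). Without replicate 1 of 75 nM this peak was not called. The peak at 100 nM (adjusted p = 0.0409) was not called with the replicate number as a block. Nor was it called without either library of 0, 12.5, 100 or 150 nM, or without replicate 1 of 200 nM. At 200 nM the difference from 0 nM was 0.22 ± 0.18 (adjusted p = 0.288). It was -0.17 with library size alone, -0.12 without replicate 2 of 200 nM and 0.47, a called rise, without replicate 1 of 200 nM. Its rise at 150 nM (0.45 ± 0.18, adjusted p = 0.0435) was not called without any one of the 4 libraries of those doses, with an adjusted p of 0.0668 to 0.226, or with the replicate number as a block (0.059). The gene shares 25.3% of its exon bases with Mettl23 and Mfsd11 on the opposite strand, and reads of the genes cannot be told apart without strand. Mfsd11 was 0.76 higher on the log2 scale at 75 nM (adjusted p = 3.73e-06) and 1.76 higher at 200 nM, while Mettl23 differed by 0.04 at 75 nM (adjusted p = 0.666).

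**Figure D3:**
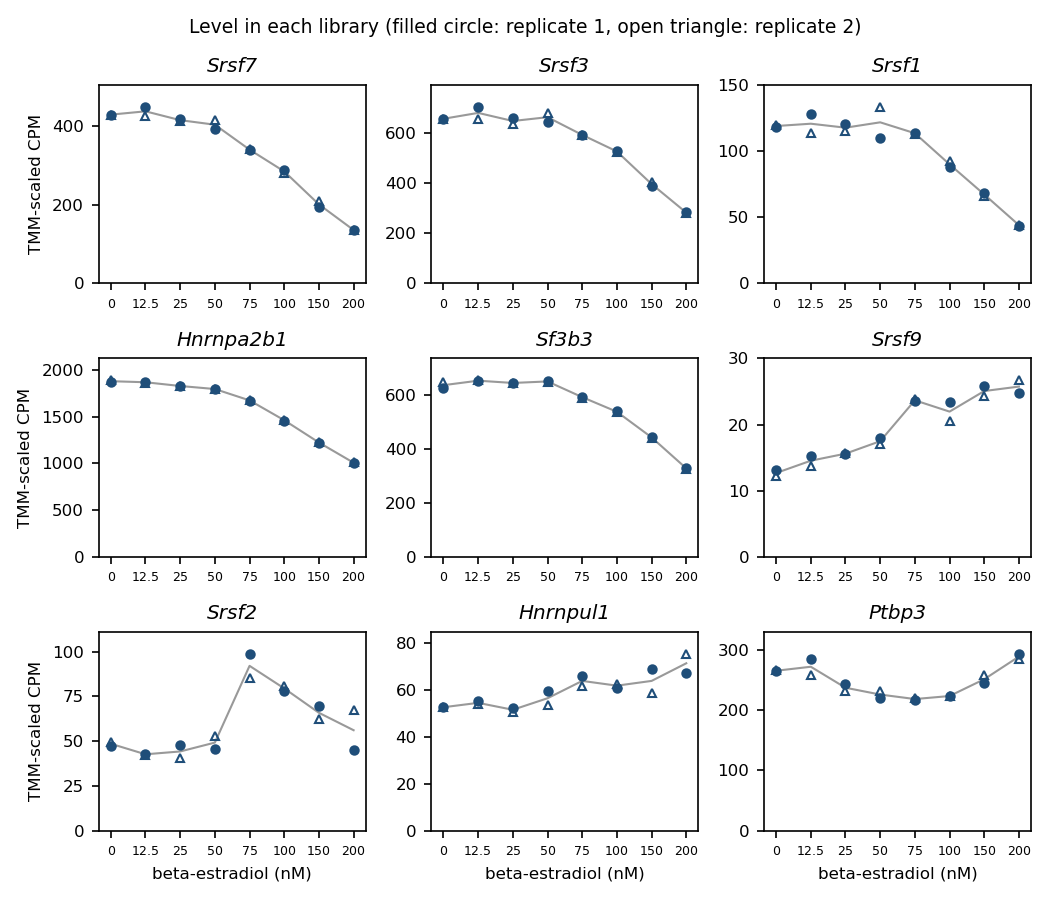
TMM-scaled CPM (y axis, from 0) of 9 splicing factors in each library (filled circles for replicate 1, open triangles for replicate 2, line for the mean) at 8 doses of beta-estradiol (nM, x axis, doses evenly spaced in rank order). Srsf7, Srsf3, Srsf1, Hnrnpa2b1 and Sf3b3 fall above 50 nM, Srsf9 climbs to 75 nM and stays high, Srsf2 is highest at 75 nM, and Ptbp3 is lowest at 75 nM (216 and 220 CPM) and highest at 200 nM (293 and 284 CPM); with library size alone as the scale the 200 nM change of Ptbp3 is -0.26, that of Srsf2 is -0.17 and that of Hnrnpul1 is 0.06, not called.

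The 250 bases upstream of the RefSeq start (GRCm38.p6) are shown for the 3 members with the largest falls at 200 nM and for Srsf9, to set the promoters of genes that moved in opposite directions side by side. Each is written 5′ to 3′ along its gene's own strand, with capitals for matches on either strand to CCAAT, to TATAA, to the E-box CACGTG or to the GATA factor letters (AGATA or TGATA, followed by an A or a G). Srsf7 is on the minus strand at chr17:80207306-80207555, Srsf1 on the plus strand at chr11:88047123-88047372, Hnrnpa0 on the minus strand at chr13:58128557-58128806 and Srsf9 on the plus strand at chr5:115326927-115327176.
Srsf7: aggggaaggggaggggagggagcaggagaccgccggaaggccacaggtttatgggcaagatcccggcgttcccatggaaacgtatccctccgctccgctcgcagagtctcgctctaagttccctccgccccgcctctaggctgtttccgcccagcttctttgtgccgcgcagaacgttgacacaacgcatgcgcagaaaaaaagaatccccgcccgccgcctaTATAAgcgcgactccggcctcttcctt
Srsf1: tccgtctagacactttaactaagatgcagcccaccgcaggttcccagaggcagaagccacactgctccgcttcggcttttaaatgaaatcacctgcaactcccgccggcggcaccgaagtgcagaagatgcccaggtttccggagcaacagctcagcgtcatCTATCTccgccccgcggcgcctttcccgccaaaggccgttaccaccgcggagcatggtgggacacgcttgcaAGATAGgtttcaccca
Hnrnpa0: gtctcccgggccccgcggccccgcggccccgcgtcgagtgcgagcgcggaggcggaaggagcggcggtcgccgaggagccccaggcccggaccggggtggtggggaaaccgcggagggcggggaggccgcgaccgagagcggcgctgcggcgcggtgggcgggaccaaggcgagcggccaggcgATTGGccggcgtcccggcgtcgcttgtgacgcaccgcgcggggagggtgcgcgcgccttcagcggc
Srsf9: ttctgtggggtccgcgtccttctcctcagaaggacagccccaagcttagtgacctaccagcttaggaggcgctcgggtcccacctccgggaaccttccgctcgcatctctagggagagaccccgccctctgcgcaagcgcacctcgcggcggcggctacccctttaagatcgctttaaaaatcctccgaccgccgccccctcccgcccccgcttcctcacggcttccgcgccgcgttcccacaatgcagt
Srsf7 has a TATAA match that begins 27 bases before the start, and Hnrnpa0 has the reverse complement of CCAAT 66 bases before it. Srsf1 has AGATAG 16 bases before the start and its reverse complement 88 bases before it. The Srsf9 window holds none of the letters searched. The G and C content was 61.6% for Srsf7, 58.8% for Srsf1, 81.2% for Hnrnpa0 and 65.2% for Srsf9.

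RefSeq promoters were matched for 34 of the 37 members, 47 promoters in all, and compared with 32851 promoters of the same length, members included. The 4 GATA factor forms together occurred on either strand in 14.9% of the member promoters (7 of 47) and in 26.5% of all. CCAAT, the letters read by the NF-Y complex, occurred in 53.2% of the member promoters (25 of 47, from 20 genes) and in 33.8% of all. TATAA occurred in 17.0% and 22.8%, and the E-box CACGTG, bound by Myc and its relatives, in 8.51% and 6.02%. Promoters of the same gene overlap in sequence, and a match of letters is no evidence of binding.

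The other SR-type factors all fell where tested. Tra2b, the Transformer-2 homologue that binds GAA-rich enhancers, had 154 and 160 CPM at 200 nM, against 320 and 320 CPM at 0 nM (log2 fold change -1.03 ± 0.04, adjusted p = 7.2e-27). Its paralogue Tra2a had 36.3 and 42.5 CPM at 200 nM, against 77.5 and 75.5 CPM at 0 nM (-0.95 ± 0.07). In both genes the 200 nM libraries lay below those of 0 nM. Srsf10, an SR protein that represses splicing when dephosphorylated, had the larger fall in this group. It was at 96.0 and 99.6 CPM at 200 nM, against 226 and 224 CPM at 0 nM (-1.20 ± 0.05, adjusted p = 1.16e-21). Srsf11 had the smallest, with 184 and 189 CPM at 200 nM, against 251 and 238 CPM at 0 nM (-0.39 ± 0.04). Near-identical coding copies exist for Tra2b (4 genes) and Srsf10 (2 genes).

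Of the 6 hnRNPs of the A, B and D type, 5 fell at 200 nM, with a median of -0.77 on the log2 scale. Hnrnpa2b1, which binds UAG-containing sites and is one of the core packaging hnRNPs, had the highest mean CPM of all members at each dose, though in replicate 1 of 200 nM Hnrnpk stood at 1003 CPM, against 1001 CPM for Hnrnpa2b1. It had 1871 and 1890 CPM at 0 nM, 1792 and 1801 CPM at 50 nM, 1670 and 1680 CPM at 75 nM, 1458 and 1467 CPM at 100 nM, 1220 and 1228 CPM at 150 nM, and 1001 and 1014 CPM at 200 nM. Replicates lay close together at each of these doses, and no library reached the level of a lower dose. The log2 fold change at 200 nM was -0.90 ± 0.03 (adjusted p = 4.29e-33). The small difference at 50 nM (-0.07) was called, but not without any one of the 4 libraries of those doses (adjusted p = 0.0838 to 0.251).

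Hnrnpa0, a single-exon member of the A group that binds AU-rich elements, fell furthest among the hnRNPs. It had 10.0 and 11.0 CPM at 200 nM, against 26.7 and 30.0 CPM at 0 nM (-1.43 ± 0.13, adjusted p = 2.32e-14). Hnrnpab fell by 0.85 ± 0.07, Hnrnpa3 by 0.68 ± 0.14 and Hnrnpd, also known as AUF1, by 0.50 ± 0.07 on the log2 scale. Hnrnpab shares 29.1% of its exon bases with Phykpl, and 21 other genes, 19 of them pseudogenes, have a near-identical copy of the Hnrnpa3 coding sequence. Hnrnpa1, an abundant hnRNP in most cells, held only 11 to 29 counts per library. It had 1.57 and 1.61 CPM at 200 nM, against 1.59 and 1.26 CPM at 0 nM, and the groups overlapped (0.15 ± 0.37, adjusted p = 0.709; -0.23 with library size alone, -0.04 with library size after leaving out Rn45s and the globins). It has 8 near-identical pseudogenes, and the sources used here do not say how reads with several matches were counted, so its level is uncertain.

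Hnrnpc, which binds uridine tracts and keeps cryptic exons out, had 375 and 364 CPM at 200 nM, against 562 and 567 CPM at 0 nM (-0.61 ± 0.03, adjusted p = 1.95e-22). The F and H proteins, which bind G-rich tracts, were mixed, with a median of -0.09. Hnrnpf had 149 and 162 CPM at 200 nM, against 231 and 225 CPM at 0 nM (-0.55 ± 0.04), and Hnrnph1 had 83.1 and 85.2 CPM at 200 nM, against 108 and 113 CPM at 0 nM (-0.39 ± 0.05). Hnrnph2, the X-linked paralogue of Hnrnph1, had 140 and 128 CPM at 200 nM, against 113 and 118 CPM at 0 nM (0.21 ± 0.05, adjusted p = 0.000221), but the change was -0.17, a called fall, with library size alone and 0.02, not called, with library size after leaving out Rn45s and the globins. Hnrnph3 held 23 to 42 counts per library, with 2.86 and 2.71 CPM at 200 nM, against 2.27 and 2.21 CPM at 0 nM (0.31 ± 0.29, adjusted p = 0.324; -0.07 with library size alone). Hnrnpf has 6 near-identical copies elsewhere in the annotation and Hnrnph2 has 1.

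Hnrnpk, which binds C-rich RNA and single-stranded DNA, kept close to its starting level. It had 1011 and 1015 CPM at 0 nM, 1083 and 1058 CPM at 50 nM, 1039 and 1026 CPM at 75 nM, 1052 and 1069 CPM at 100 nM, 1061 and 1009 CPM at 150 nM, and 1003 and 999.4 CPM at 200 nM. The difference at 200 nM was -0.02 ± 0.03 (adjusted p = 0.567), but -0.40 with library size alone and -0.21 with library size after leaving out Rn45s and the globins, both called lower. Peaks at 50 nM (adjusted p = 0.0274) and 100 nM (adjusted p = 0.0493, a peak called in 3.04% of all genes) were 0.08 and 0.07 above 0 nM on the log2 scale, and neither was called with library size alone or without replicate 1 of 0 nM. Hnrnpm had 326 and 314 CPM at 200 nM, against 543 and 555 CPM at 0 nM (-0.78 ± 0.03), and Hnrnpr 139 and 141 CPM at 200 nM, against 177 and 175 CPM at 0 nM (-0.33 ± 0.04).

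The polypyrimidine tract binding proteins parted. Ptbp1, a repressor of many tissue-specific exons, had 702 and 698 CPM at 0 nM, 656 and 722 CPM at 50 nM, 623 and 636 CPM at 75 nM, 565 and 567 CPM at 100 nM, 482 and 491 CPM at 150 nM, and 395 and 395 CPM at 200 nM. Its log2 fold change at 200 nM was -0.83 ± 0.03 (adjusted p = 9.77e-27), but 20.7% of its exon bases also belong to other genes on the opposite strand. Ptbp3, first described as the blood cell paralogue Rod1, had 264 and 266 CPM at 0 nM, 285 and 258 CPM at 12.5 nM, 243 and 231 CPM at 25 nM, 220 and 231 CPM at 50 nM, 216 and 220 CPM at 75 nM, 223 and 223 CPM at 100 nM, 244 and 258 CPM at 150 nM, and 293 and 284 CPM at 200 nM. It lies on chromosome 4 at 59471868 to 59549364 (minus strand, GRCm38). It was below both ends at 75 nM, by 0.28 against 0 nM and 0.40 against 200 nM (adjusted p = 1.54e-07, a dip called in 2.60% of all genes), and likewise at 50 nM (1.16e-05, 1.77% of genes), 100 nM (1.57e-06, 2.27%) and 25 nM (0.0133, 0.298%). Against library size alone the dips at 75 and 100 nM were still called, and those at 25 and 50 nM were not. Its level at 200 nM was 0.12 ± 0.04 above 0 nM (adjusted p = 0.00653), but -0.26, a called fall, with library size alone and -0.07, not called, with library size after leaving out Rn45s and the globins. The rise was also not called without replicate 1 of 0 nM (adjusted p = 0.0794) or replicate 1 of 200 nM (0.0758). Hnrnpl, a CA-repeat binding regulator, fell by 0.39 ± 0.08 at 200 nM on the log2 scale.

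The hnRNP U family, large nuclear proteins that bind chromatin as well as RNA, had 1 member lower and 2 higher. Hnrnpu itself, also called SAF-A, had 128 and 138 CPM at 200 nM, against 184 and 179 CPM at 0 nM (-0.45 ± 0.04, adjusted p = 7.29e-13). Hnrnpul1 had 67.3 and 75.2 CPM at 200 nM, against 52.5 and 52.5 CPM at 0 nM (0.44 ± 0.07, adjusted p = 3.46e-07), which was 0.06 and not called with library size alone (adjusted p = 0.44). Hnrnpul2 had 21.47 and 18.47 CPM at 200 nM, against 16.01 and 16.46 CPM at 0 nM (0.30 ± 0.11, adjusted p = 0.0168). That rise was not called with library size alone, where it was -0.08, with library size after leaving out Rn45s and the globins, where it was 0.10, with DESeq2 (adjusted p = 0.0734), or without replicate 1 of 0 nM (0.0906), replicate 2 of 0 nM (0.0502) or replicate 1 of 200 nM (0.232).

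All 4 branch point and 3′ splice site factors fell at 200 nM, with a median of -0.74. Sf3b3, a scaffold of the SF3b complex, had 329 and 328 CPM at 200 nM, against 625 and 649 CPM at 0 nM (-0.96 ± 0.03, adjusted p = 8.2e-31). Sf3b1, the subunit that clamps the branch point, had 682 and 698 CPM at 200 nM, against 814 and 840 CPM at 0 nM (-0.26 ± 0.03, adjusted p = 2.77e-11), the smallest change of the 4. U2af1, which reads the AG at the intron's end, had 73.8 and 82.8 CPM at 200 nM, against 149 and 146 CPM at 0 nM (-0.92 ± 0.05). U2af2, which reads the pyrimidine tract before it, had 62.4 and 61.5 CPM at 200 nM, against 93.6 and 89.7 CPM at 0 nM (-0.56 ± 0.06). In none of the 4 did the libraries of the groups overlap. The same was true of every tested member but Srsf2 and Hnrnpa1, also of Hnrnpk and Hnrnph3, which were not called. The share of all genes without overlap was not counted, so this cannot be read as a trait of the members. Each of the 4 kept its direction under all alternatives tried.

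Ratios of counts between partners and paralogues within a library do not depend on how libraries are scaled. Ptbp3 relative to Ptbp1 stood at 0.376 to 0.381 at 0 nM, 0.320 to 0.335 at 50 nM and 0.720 to 0.742 at 200 nM. Sf3b1 relative to Sf3b3 was 2.07 to 2.13 at 200 nM, against 1.29 to 1.30 at 0 nM, and Srsf3 relative to Srsf7 was 2.08 to 2.09 at 200 nM, against 1.53 at 0 nM. The largest shift was that of Srsf1 relative to Srsf9, with 1.65 to 1.76 at 200 nM, against 8.97 to 9.79 at 0 nM. None of these ratios overlapped between 200 and 0 nM. Srsf2 relative to Srsf5 was 0.125 to 0.128 at 0 nM, 0.217 to 0.254 at 75 nM and 0.152 to 0.228 at 200 nM.

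Smaller shifts without overlap were seen for U2af1 relative to U2af2 (1.18 to 1.35 at 200 nM, against 1.60 to 1.63 at 0 nM), Srsf4 relative to Srsf6 (0.296 to 0.311 at 200 nM, against 0.238 to 0.245 at 0 nM) and Hnrnph1 relative to Hnrnpf (0.527 to 0.558 at 200 nM, against 0.469 to 0.502 at 0 nM). Tra2b relative to Tra2a was 3.76 to 4.23 at 200 nM and 4.13 to 4.24 at 0 nM, and these ranges overlapped. Hnrnpa2b1 relative to Hnrnpa1 was 630 to 639 at 200 nM, against 1173 to 1499 at 0 nM, but rests on the few counts of Hnrnpa1. The ratios are given as descriptions and were not tested.

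**Figure D4:**
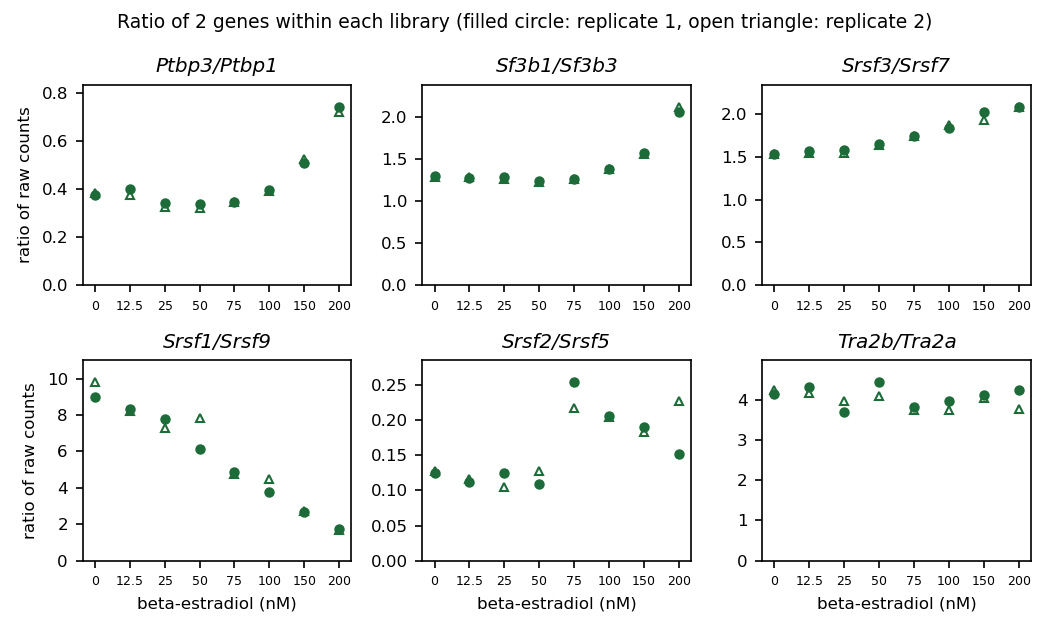
Ratio of the raw counts of paired genes (y axis, from 0) in each library (filled circles for replicate 1, open triangles for replicate 2) at 8 doses of beta-estradiol (nM, x axis, doses evenly spaced in rank order). Ptbp3/Ptbp1 dips at 50 nM and is highest at 200 nM, Sf3b1/Sf3b3 climbs above 75 nM, Srsf3/Srsf7 climbs over the series, Srsf1/Srsf9 falls to 1.65 to 1.76 at 200 nM, Srsf2/Srsf5 steps up at 75 nM and Tra2b/Tra2a overlaps between the end doses.

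Levels of different genes can be compared per length of annotated exon. On that scale the highest members at 200 nM were Hnrnpk at 155 CPM per kb and Hnrnpa2b1 at 153 CPM per kb, against 157 and 286 CPM per kb at 0 nM. Srsf7 stood at 38.1 CPM per kb at 200 nM, against 121 at 0 nM, which brought it close to Ptbp3 (38.6 CPM per kb at 200 nM, against 35.4 at 0 nM). Srsf9 stood at 15.6 CPM per kb at 200 nM, against 7.67 at 0 nM. Srsf1 stood at 7.67 CPM per kb at 200 nM, against 20.8 at 0 nM, so that on this scale the order of these close relatives was exchanged. The exchange depends on the length used, the exon bases of all annotated transcripts (5710 for Srsf1 and 1653 for Srsf9). In raw counts Srsf1 was still 1.65 to 1.76 times Srsf9 at 200 nM. At least 1 transcript marked for nonsense-mediated decay is annotated for 24 of the 37 members, and counts per gene do not separate such transcripts from those that are translated.

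The genes that work with the members were followed in 10 lists with 157 tested genes of 167 listed. At 200 nM 100 of them were lower and 35 higher, with a median log2 fold change of -0.40 beside 0.02 for all genes. Among all genes tested 39.5% were lower and 40.5% higher at that dose. At 100 nM 80 of the 157 were lower and 28 higher (median -0.14), beside 32.5% and 34.1% of all genes. At 50 nM 15 were lower and 20 higher (median -0.00285), beside 14.7% and 18.8% of all genes. These counts used TMM scaling and were not recomputed under the other scalings.

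The 5 lists with the largest shares of lower genes at 200 nM were the Sm ring, the U1, U2 and U4/U6.U5 particles, and import and export. All 7 tested proteins of the Sm ring, which encircles the spliceosomal small nuclear RNAs, were lower (median -1.04), with Snrpd1 at 98.3 ± 4.2 CPM at 200 nM and 260.0 ± 6.5 CPM at 0 nM (SD, n = 2 each). Of 6 U1 particle genes 5 were lower, among them Snrnp70, which SR proteins contact at the 5′ splice site, at 79.7 ± 5.0 CPM at 200 nM and 200.2 ± 1.1 CPM at 0 nM. Of 17 further U2 and branch point genes 14 were lower and 2 higher (median -0.72), and Sf3a3 fell by 1.01 ± 0.04 and Sf3a1 by 0.92 ± 0.04 on the log2 scale. Of 21 genes of the U4/U6.U5 particle 17 were lower and 3 higher (median -0.84). Snrnp40 fell by 1.28 ± 0.04 there, while Prpf6, which bridges the particles of the tri-snRNP, rose to 512 ± 7 CPM at 200 nM, against 217 ± 0.3 CPM at 0 nM. Of 11 genes for SR protein import and mRNA export 10 were lower, with the helicases Ddx39 (-1.11 ± 0.03) and Ddx39b (-0.86 ± 0.04) the clearest.

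The other 5 lists had smaller shares of lower genes, and like the U2 and U4/U6.U5 lists they had genes called in both directions. Of 9 kinases that phosphorylate SR proteins 4 were higher and 3 lower (median 0.25). Clk1, which releases SR proteins from nuclear speckles, had 263 ± 7 CPM at 200 nM and 94.9 ± 1.6 CPM at 0 nM (log2 fold change 1.47 ± 0.05, adjusted p = 8.25e-31), and Prpf4b fell by 1.01 ± 0.05. Among 10 genes of nonsense-mediated decay 3 were higher and 2 lower (median -0.04), with Upf3a at 50.1 ± 7.0 CPM at 200 nM and 18.1 ± 4.6 CPM at 0 nM and Smg6 higher by 0.79 ± 0.07. Among 21 SR-related coactivators 12 were lower and 6 higher, with Pnn at -0.81 and Bclaf1 at -0.65. Among 20 genes of the catalytic stage and exon junction 12 were lower and 8 higher, with Bcas2 at -1.22 and Eif4a3 at -0.77. Among 35 other splicing regulators 18 were lower and 9 higher, with Fubp1 at -1.41 and Rbm38, an RNA-binding protein active in late erythroid splicing, at 0.99.

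**Figure D5:**
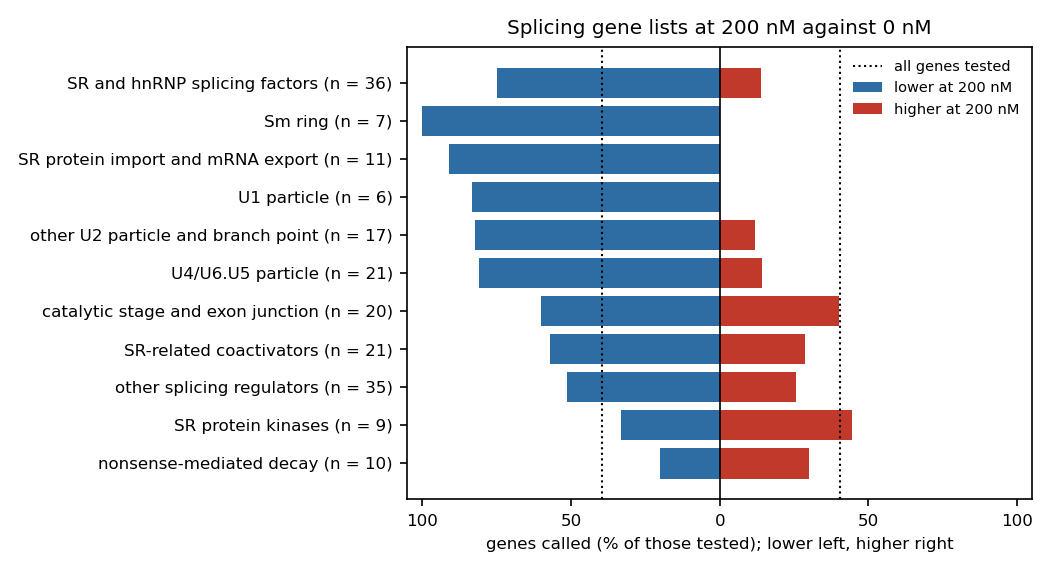
Share of tested genes (%, x axis) called lower (blue, to the left) and higher (red, to the right) at 200 nM against 0 nM (edgeR, TMM scaling) for the splicing factors and 10 lists of genes that work with them (y axis, n tested in each label); dotted lines mark 39.5% lower and 40.5% higher among all genes. The Sm ring, import and export, U1, U2 and U4/U6.U5 lists lie mostly to the left, and the SR protein kinases and nonsense-mediated decay lists do not.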

How the data were processed

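RNA from 16 bulk G1E-ER4 samples was prepared with Smart-seq2, per the labels, a full-length method that keeps no strand and uses no molecular identifiers. Raw, whole-number read counts by gene symbol, in a table for all libraries, are what the authors deposited; bcl2fastq, STAR and mm10 are named per the submitters' processing notes, while the sources used here do not give versions, the counting program, its annotation or its rule for reads that match several genes. All 16 count columns were mapped to samples by their titles. Library totals ran from 9393156 to 15802510 counts; since reads were amplified and carry no molecular tags, counting precision is a lower limit of the error, and replicates differed beyond counting noise at each dose.

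Counts were analysed in R 4.3.3 with edgeR 4.0.16. filterByExpr by dose kept 10080 of 23410 symbols, libraries were scaled by TMM, and a robust quasi-likelihood model with dose as a factor was fitted to all 16 libraries. Contrasts were each dose against 0 nM, neighbouring doses, all doses together, and peaks or dips against both 0 and 200 nM (larger p of the pair). P-values were Benjamini-Hochberg adjusted over all genes tested, and genes under 0.05 were called. SE is the size of the log2 fold change divided by the square root of the test's F statistic, and SDs have n = 2. The procedure was tested on simulated data in which a small part of the genes changed at 200 nM, evenly up and down. Changes as widespread as those in these libraries were not simulated, so the choice of scaling was not tested there. Alternatives were other scalings, no filter, DESeq2 1.42.0, the 4 libraries of a contrast alone, the replicate number as a block, and leaving out each library.

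Members, role lists, related lists and markers were chosen with earlier results of these data known. In each role list the largest and smallest 200 nM changes, the ratio pairs and every peak or dip were described by library, and of each related list the 2 genes with the smallest p were named; the Srsf12, Hnrnpul2, Hnrnph2 and Hnrnpr values were given in addition. Positions, exon lengths, overlaps and near-identical copies (at least 95% identity over at least 50% of the coding bases, blastn 2.17.0) came from GENCODE M21 on GRCm38, where 37 of 37 members matched, and promoters came from RefSeq on GRCm38.p6.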

Additional observations from a re-analysis of the deposited data

How the results depend on the processing

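With library size alone, members lower numbered 2 at 25 nM, 12 at 50 nM and 26 at 75 nM, members higher 1 at 50 nM, 2 at 100 nM, 1 at 150 nM and 1 at 200 nM, the median at 200 nM was -0.91, and 1 member peaked. At 200 nM it reversed Hnrnph3 (-0.067), Srsf2 (-0.17), Hnrnpa1 (-0.23), Hnrnpul2 (-0.084), Ptbp3 (-0.26) and Hnrnph2 (-0.17). With library size after leaving out Rn45s and globins, chosen after seeing the data, 1 was higher and 10 lower at 50 nM, 2 were higher at each of 100, 150 and 200 nM, the median was -0.72, 1 member peaked and 2 dipped, and Hnrnpa1 (-0.039) and Ptbp3 (-0.069) reversed. These 2 settings differ from TMM by construction in where the median gene lies. DESeq2 size factors gave 2 dips and no filter gave 1 lower at 50 nM; the cause was not tested. The DESeq2 Wald test (not run for peaks, dips and the test over all doses), the fit of 4 libraries and the replicate block kept every count within 1.5 times its value; the block gave 27 lower and 5 higher at 200 nM. Deviations of same-numbered libraries correlated between -0.0583 and 0.096 (median 0.00209). The labels do not say whether same-numbered libraries share a culture or preparation, and these correlations cannot exclude it. Leaving out 1 library, with a lone library assumed to vary like the others, gave 0 to 1 lower at 25 nM, 1 to 4 higher and 1 to 3 lower at 50 nM, 3 to 3 higher and 11 to 14 lower at 75 nM, 3 to 3 higher and 21 to 23 lower at 100 nM, 1 to 3 higher and 24 to 27 lower at 150 nM, 3 to 5 higher and 27 to 27 lower at 200 nM, a median of -0.55 to -0.52, 1 to 5 peaks (1 without replicate 1 of 0 nM, 5 without replicate 1 of 50 nM) and 1 dip. Hnrnpa1 ranged from -0.020 (without replicate 2 of 0 nM) to 0.32, and Srsf2 from -0.12 to 0.47. Depth limits Hnrnpa1 and Hnrnph3 most.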

Other observations

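A few relatives of the splicing factors stand in the table under other symbols and were outside the naming rule. They were singled out after their values were seen. Hnrpdl, the D-like hnRNP under an older symbol, had 204 and 214 CPM at 200 nM, against 357 and 349 CPM at 0 nM (log2 fold change -0.76 ± 0.04, edgeR adjusted p = 6.39e-24). Hnrpll, a paralogue of Hnrnpl known for its part in lymphocyte CD45 splicing, was highest at 75 and 100 nM. It had 22.3 and 20.7 CPM at 75 nM and 20.9 and 22.7 CPM at 100 nM, against 13.5 and 12.3 CPM at 0 nM. The log2 fold changes were 0.74 (adjusted p = 2.15e-06) and 0.76 (adjusted p = 8.21e-07). Sfrs18, an SR-related gene under an older symbol, had 38.3 and 38.8 CPM at 200 nM, against 45.3 and 48.7 CPM at 0 nM (-0.29 ± 0.08, adjusted p = 0.00132), and was lowest at 150 nM (31.8 and 29.9 CPM, -0.60). Ptbp2, the neuronal paralogue of Ptbp1, had 31.1 and 27.5 CPM at 200 nM, against 15.1 and 15.1 CPM at 0 nM (0.95 ± 0.12, adjusted p = 3.27e-10). At 200 nM the 3 polypyrimidine tract binding paralogues thus had log2 fold changes of -0.83 (Ptbp1), 0.95 (Ptbp2) and 0.12 (Ptbp3, -0.26 with library size alone).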
